A study of Mus musculus with 10 samples.

Results

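The 10 cytokine receptor genes described here, Il17ra, Il17rc, Il22ra1, Il20ra, Il20rb, Il10rb, Osmr, Il6ra, Il6st and Tnfrsf1a, were found by symbol among 49164 mouse genes. These genes have values in the authors' data from gum epithelium, but for some, such as Il20 and Ifnl3, no library held any count. The groups were 5 palatal libraries, from the gingival epithelium of the side that faces the palate, and 5 buccal libraries, from the side that faces the cheek. In both, the protease Dispase loosened the epithelium, which was lifted off with forceps, and polyadenylated RNA was sequenced. The labels give no genotype, strain, sex, age or treatment, and name no animals, so a p-value here covers the spread between libraries, which may be partly technical. The series' design text mentions pools of 4 specific-pathogen-free (SPF) or 4 germ-free (GF) mice, but no label assigns that status to these libraries, and it was not analysed here.

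Many cytokine receptors pair a chain that binds 1 or a few cytokines with a signalling chain that several receptors share. Interleukins 20, 22 and 24 bind class II receptors that signal through Janus kinases (JAK) and the transcription factor STAT3, and drive proliferation and repair in keratinocytes. Interleukins 17A and 17F act through the Il17ra and Il17rc products and induce antimicrobial and neutrophil-recruiting genes at barrier surfaces. The gp130 chain, encoded by Il6st, is shared by the receptors of interleukin 6, oncostatin M and related cytokines, and Tnfrsf1a encodes the widely expressed receptor of tumor necrosis factor (TNF).

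Palatal epithelium carried less transcript of the class II chains Il20rb, Il22ra1 and Il10rb and of Il17rc, and more of the interleukin 6 receptor genes Il6ra and Il6st. Il17ra, Osmr and Tnfrsf1a did not pass the test, and Il20ra was too low to be tested. The Il17rc call was the least stable and was lost when any of 7 single libraries was left out. In edgeR's quasi-likelihood test, adjusted by Benjamini-Hochberg over all 14062 tested genes, 6 of the 9 tested receptor genes had an adjusted p under 0.05, against 38.9% of all tested genes. Of these 2 were higher in palatal, against 18.7% of all tested genes, and 4 were lower, against 20.3%. None of the 9 changed by 2-fold or more, a size reached with the call by 10.2% of all tested genes. The 5 palatal and 5 buccal values did not overlap for 4 of the 9, against 28.3% of all tested genes: palatal lay above for 1 (13.6% of all tested genes) and below for 3 (14.7%). The median log2 fold change, palatal minus buccal, was -0.18 for the 9 and 0.01 for all tested genes. Whether the receptors differ as a list from other genes was not tested.

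The libraries held 25868777 to 35583168 counts in palatal and 29317011 to 37234192 in buccal samples. Levels are given as CPM, counts scaled to library size with TMM factors. All 13 keratinocyte markers were tested, 6 higher and 3 lower, and their summed level was 133849 to 147080 CPM in palatal and 139659 to 157880 CPM in buccal libraries. Within these sums single keratins differed widely in both directions. Krt76 and Krt10 had means of 37470 and 18347 CPM in palatal, against 1978 and 4009 CPM in buccal libraries. Krt4 and Krt1 had 13853 and 365.2 CPM in palatal, against 57984 and 1378 CPM in buccal libraries. Markers of other cells moved with side as well, and the part of all these markers in the receptor results was not tested. Among all tested genes 18.7% were higher and 20.3% lower. A scarce marker can pass the count filter through 1 side alone, as Nkg7 did, with 9 counts in palatal and 112 in buccal libraries. The marker counts below therefore describe the tested genes only. Of 9 Langerhans and dendritic cell markers 8 were tested and all 8 were lower (summed 66.8 to 93.4 CPM in palatal and 214.3 to 381.1 CPM in buccal libraries). Of 10 markers of T cells and innate lymphoid cells 8 were tested, 7 lower and 1, Thy1, higher (summed 21.6 to 31.4 CPM in palatal and 21.8 to 28.7 CPM in buccal libraries, most of it Thy1). Of 11 macrophage markers 9 were tested, 7 lower and 1, Itgam, higher (summed 25.8 to 30.9 CPM in palatal and 31.2 to 49.8 CPM in buccal libraries). Of 10 fibroblast markers 7 were tested, 3 higher and 1 lower (summed 96.5 to 112.3 CPM in palatal and 43.3 to 64.8 CPM in buccal libraries). Most of the palatal sum was Dcn, with means of 73.3 CPM in palatal and 6.61 CPM in buccal libraries. Col5a2 and Fbn1 were also higher, while Vim was lower (log2 fold change -1.95). The collagen genes Col1a1, Col1a2 and Col3a1 did not pass, so these sums give no direction for fibroblast content. Of 8 neutrophil markers 1, Cxcr2, was tested and lower (summed 3.78 to 4.72 CPM in palatal and 9.52 to 12.5 CPM in buccal libraries, most of it Cxcr2). Ly6g and Elane were at 0 in palatal libraries and had 2 counts each in buccal libraries. B cell and endothelial markers each had 1 tested gene, which did not pass (summed 0.846 to 1.75 and 2.55 to 7.57 CPM in palatal, 0.676 to 1.62 and 3.64 to 7.13 CPM in buccal libraries). No melanocyte marker was tested (summed 0.282 to 0.541 CPM in palatal and 0.290 to 0.587 CPM in buccal libraries), and Tyrp1 was at 0 throughout. In such bulk samples fewer cells of a type and less RNA per cell cannot be told apart.

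**Figure D1:**
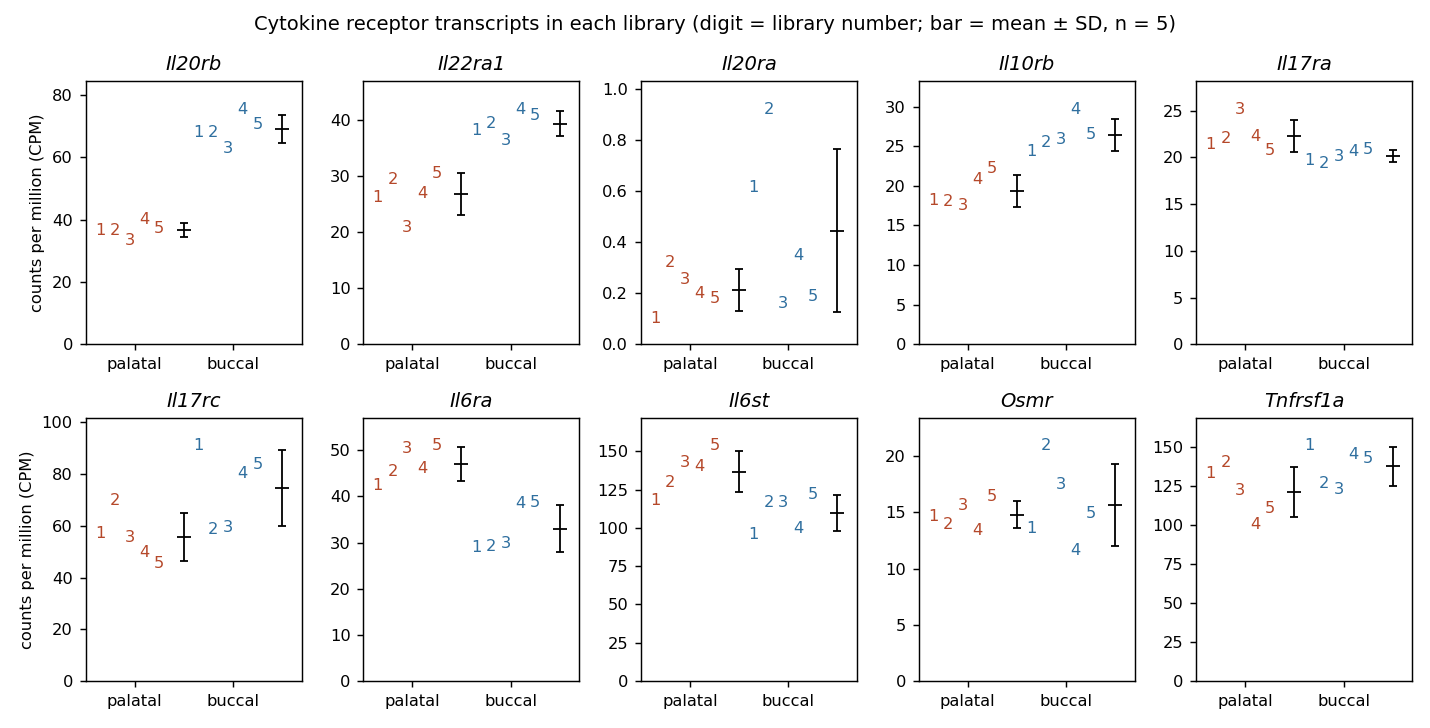
CPM of each receptor gene in the 5 palatal and 5 buccal libraries, each digit standing for the library of that number, with the mean ± SD beside it and every vertical axis starting at 0. Palatal values lie below all buccal values for Il20rb, Il22ra1 and Il10rb and above them for Il6ra, while the sides overlap for the other 6 genes.

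Il20rb (ENSMUSG00000044244, chromosome 9) encodes the beta chain shared by both interleukin 20 receptors. It had 36.4, 36.6, 33.4, 39.9 and 37.2 CPM in palatal libraries 1 to 5, against 68.1, 68.1, 62.9, 75.5 and 70.6 CPM in buccal libraries 1 to 5. All palatal libraries lay far below all buccal ones, with little spread within a side (36.7 ± 2.31 CPM in palatal and 69.0 ± 4.56 CPM in buccal libraries, SD, n = 5). The log2 fold change was -0.91 ± 0.07 (SE; 95% confidence interval -1.05 to -0.77; edgeR adjusted p = 7.36e-08), a palatal level 0.532 times the buccal one. In size this change stood at percentile 88.1 of all tested genes.

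Il22ra1 (ENSMUSG00000037157, chromosome 4) encodes the alpha chain that pairs with the Il10rb product to bind interleukin 22, and with the Il20rb product to bind interleukins 20 and 24. Its levels were 26.2, 29.4, 20.9, 27.0 and 30.4 CPM in palatal libraries 1 to 5, against 38.1, 39.4, 36.3, 41.9 and 40.9 CPM in buccal libraries 1 to 5. Palatal library 3 was the lowest, and the sides did not overlap. Il22ra1 gave a log2 fold change of -0.56 ± 0.09 (SE; 95% confidence interval -0.75 to -0.36; edgeR adjusted p = 1.97e-04).

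Il10rb (ENSMUSG00000022969, chromosome 16) encodes the second chain of the receptors for interleukins 10 and 22 and for interferon lambda. It had 18.2, 18.1, 17.5, 20.8 and 22.2 CPM in palatal libraries 1 to 5, against 24.3, 25.5, 25.9, 29.7 and 26.5 CPM in buccal libraries 1 to 5. The highest palatal library stayed under the lowest buccal one, at a log2 fold change of -0.45 ± 0.08 (SE; edgeR adjusted p = 5.37e-04). In the GENCODE M21 annotation 14.9% of its exon bases also belong to Gm21970 on the same strand, for which no counts were found. Whether Gm21970 had counts of 0 or no value was not told apart. How reads in the shared stretch were counted is not given in the sources used here.

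Il20ra (ENSMUSG00000020007, chromosome 10) encodes the alpha chain of the receptor that binds interleukins 19, 20 and 24. It had only 3, 10, 9, 5 and 5 counts in palatal libraries 1 to 5, against 19, 28, 5, 10 and 7 counts in buccal libraries 1 to 5. Scaled to library size, buccal libraries 1, 2 and 4 lay above all palatal ones, and buccal libraries 3 and 5 lay among them. Il20ra averaged 0.210 ± 0.0823 CPM in palatal and 0.445 ± 0.320 CPM in buccal libraries (SD, n = 5; exact two-sided permutation p = 0.175). It did not pass the count filter, and without a filter edgeR gave a log2 fold change of -1.03 ± 0.41 (SE; adjusted p = 0.0744). No difference was detectable at this depth.

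The start regions of the most changed class II chains and of the interleukin 6 receptor genes are printed so that genes that were lower and genes that were higher can be set side by side. RefSeq windows of 300 bases, 250 before and 50 after the annotated start (build GRCm38.p6, while the submitters' processing notes name GRCm39), were found for 8 of the 10 genes, all but Il17ra and Il10rb. Capitals mark matches on either strand to 4 motifs: STAT (TTCNNNGAA), AP-1 (TGANTCA), NF-kB (GGG and TTCC with any 3 bases between them) and an interferon response motif (a pair of GAAA with any 2 bases between them). No matches overlapped in these windows.
Il20rb, chr9:100486424-100486723, minus strand: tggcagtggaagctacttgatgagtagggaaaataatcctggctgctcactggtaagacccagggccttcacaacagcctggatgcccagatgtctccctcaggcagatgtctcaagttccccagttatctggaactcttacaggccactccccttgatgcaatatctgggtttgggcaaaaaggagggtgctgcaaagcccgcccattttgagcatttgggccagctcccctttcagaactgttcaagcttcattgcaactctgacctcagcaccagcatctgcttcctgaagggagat
Il22ra1, chr4:135727909-135728208, plus strand: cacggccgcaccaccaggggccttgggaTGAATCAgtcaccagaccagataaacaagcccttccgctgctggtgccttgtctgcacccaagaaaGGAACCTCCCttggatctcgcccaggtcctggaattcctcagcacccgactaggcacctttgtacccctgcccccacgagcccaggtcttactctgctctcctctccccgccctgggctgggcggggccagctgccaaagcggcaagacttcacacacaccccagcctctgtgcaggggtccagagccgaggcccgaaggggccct
Il6ra, chr3:89913147-89913446, minus strand: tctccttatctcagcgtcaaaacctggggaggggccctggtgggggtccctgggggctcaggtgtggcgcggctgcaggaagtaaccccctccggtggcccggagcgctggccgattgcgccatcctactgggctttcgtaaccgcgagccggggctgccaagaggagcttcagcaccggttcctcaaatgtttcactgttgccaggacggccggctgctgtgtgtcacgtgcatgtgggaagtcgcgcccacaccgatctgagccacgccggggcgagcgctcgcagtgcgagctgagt
Il6st, chr13:112463820-112464119, plus strand: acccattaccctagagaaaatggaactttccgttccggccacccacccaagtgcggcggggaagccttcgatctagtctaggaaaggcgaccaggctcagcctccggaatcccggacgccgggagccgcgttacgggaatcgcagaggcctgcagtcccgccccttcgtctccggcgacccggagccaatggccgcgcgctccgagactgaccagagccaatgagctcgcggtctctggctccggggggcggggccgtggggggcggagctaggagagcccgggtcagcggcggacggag
The windows of Il20rb and Il22ra1 held 1 and 11 CpG dinucleotides, those of Il6ra and Il6st held 25 and 33, and the median over all 32851 windows was 7. Those of Il17rc, Tnfrsf1a, Il20ra and Osmr held 7, 11, 13 and 22. A link between CpG number and the difference between sides was not tested. In the Il22ra1 window an AP-1 match begins at position -222 from the start and an NF-kB match at position -156. AP-1 letters occurred in 7.81% of all windows, NF-kB letters in 5.56%, STAT letters in 8.3% and interferon response letters in 3.44%. Among the other receptor genes AP-1 letters lay in the windows of Il20ra and Osmr, NF-kB letters in that of Il17rc and STAT letters in that of Tnfrsf1a. A match describes letters in this window and nothing more.

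The interleukin 6 receptor genes were higher in palatal epithelium. Il6ra (ENSMUSG00000027947, chromosome 3) encodes the chain that binds interleukin 6 itself. It had 42.4, 45.3, 50.4, 46.0 and 51.0 CPM in palatal libraries 1 to 5, against 28.9, 29.1, 29.7, 38.5 and 38.6 CPM in buccal libraries 1 to 5. Buccal libraries 4 and 5 stood above buccal libraries 1, 2 and 3, and still under all palatal ones. Il6ra gave a log2 fold change of 0.51 ± 0.10 (SE; 95% confidence interval 0.30 to 0.72; edgeR adjusted p = 6.79e-04). Exons of Gm42809 on the opposite strand cover 2.8% of its exon bases, with 31 counts in all for Gm42809 and 12324 for Il6ra. Leukocytes also express Il6ra, and the part of the leukocyte markers given above in this result was not tested.

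Il6st (ENSMUSG00000021756, chromosome 13) had 117.7, 129.8, 142.6, 139.9 and 153.5 CPM in palatal libraries 1 to 5, against 95.4, 116.3, 116.3, 99.3 and 121.6 CPM in buccal libraries 1 to 5. The sides overlapped only through palatal library 1, which lay under buccal library 5. Its log2 fold change was 0.32 ± 0.09 (SE; 95% confidence interval 0.13 to 0.50; edgeR adjusted p = 0.00940).

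Osmr (ENSMUSG00000022146, chromosome 15) encodes the oncostatin M binding partner of gp130 and a chain of the interleukin 31 receptor. It had 14.6, 13.9, 15.7, 13.4 and 16.4 CPM in palatal libraries 1 to 5, against 13.5, 20.9, 17.5, 11.6 and 14.9 CPM in buccal libraries 1 to 5. The palatal values lay close together inside the wider buccal range, in which library 2 was the highest. Osmr gave a log2 fold change of -0.08 ± 0.13 (SE; 95% confidence interval -0.36 to 0.20; edgeR adjusted p = 0.666). Without buccal library 2 its sign turned (0.0413; edgeR adjusted p = 0.799), so no direction can be given.

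Il17rc (ENSMUSG00000030281, chromosome 6) encodes the chain that pairs with the Il17ra product to bind interleukins 17A and 17F. It had 57.0, 69.9, 55.4, 49.7 and 45.4 CPM in palatal libraries 1 to 5, against 90.9, 58.7, 59.4, 80.3 and 83.7 CPM in buccal libraries 1 to 5. Buccal libraries 2 and 3 lay under palatal library 2, while buccal libraries 1, 4 and 5 lay above all palatal ones. Il17rc gave a log2 fold change of -0.43 ± 0.14 (SE; 95% confidence interval -0.73 to -0.12; edgeR adjusted p = 0.0278). That call was lost without buccal library 1 (edgeR adjusted p = 0.0743), 4 (0.0574) or 5 (0.0638), and without palatal library 1 (0.0527), 3 (0.0581), 4 (0.0724) or 5 (0.0713). It was also lost with no count filter (edgeR adjusted p = 0.122), and it passed in 11 of 19 alternatives, over which the log2 fold change ran from -0.60 to -0.34.

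Il17ra (ENSMUSG00000002897, chromosome 6), the common chain of the interleukin 17 receptors, had 21.4, 22.0, 25.2, 22.2 and 20.8 CPM in palatal libraries 1 to 5, against 19.6, 19.4, 20.1, 20.6 and 20.9 CPM in buccal libraries 1 to 5. The sides overlapped only through palatal library 5, which lay just under buccal library 5. Its log2 fold change was 0.15 ± 0.07 (SE; 95% confidence interval 0.0047 to 0.29; edgeR adjusted p = 0.0965), which did not pass.

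Tnfrsf1a (ENSMUSG00000030341, chromosome 6) encodes a TNF receptor with a death domain. It had 133.0, 140.0, 122.2, 100.2 and 110.7 CPM in palatal libraries 1 to 5, against 150.8, 126.7, 122.6, 145.5 and 142.5 CPM in buccal libraries 1 to 5. Palatal libraries 4 and 5 were the lowest and buccal libraries 1, 4 and 5 the highest of their sides, as they were for Il17rc. Tnfrsf1a gave a log2 fold change of -0.18 ± 0.09 (SE; 95% confidence interval -0.38 to 0.015; edgeR adjusted p = 0.136). It passed in 1 of 19 alternatives, with library 2 left out on both sides (-0.27; edgeR adjusted p = 0.0409).

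**Figure D2:**
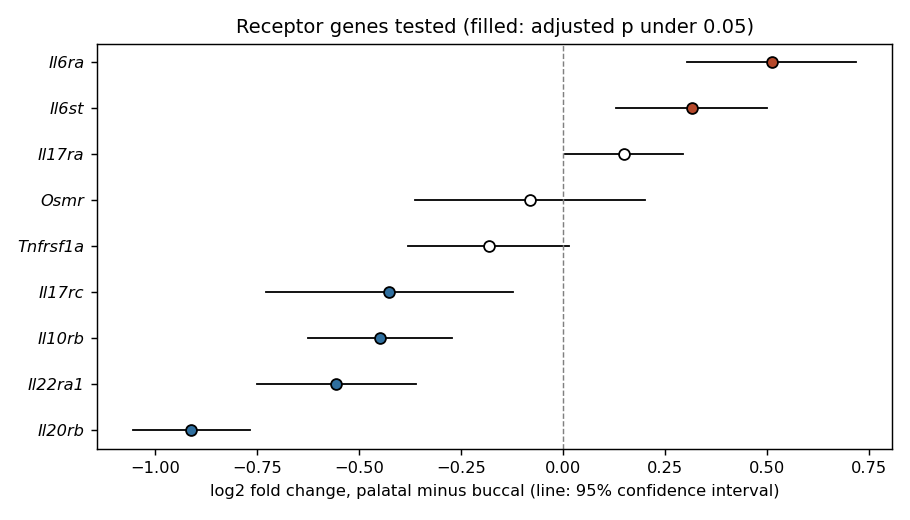
Log2 fold change, palatal minus buccal, of the 9 tested receptor genes with 95% confidence intervals from the edgeR fit. Filled points had an adjusted p under 0.05: Il20rb, Il22ra1, Il10rb and Il17rc to the left of 0, Il6st and Il6ra to the right.

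Levels can be set between genes only per length, here as CPM per kilobase of exon in the GENCODE M21 annotation, whose gene models may differ from those the authors counted on. On this scale Tnfrsf1a was the highest of the 10 on both sides, with a level of 46.8 ± 6.23 in palatal and 53.1 ± 4.74 in buccal libraries (SD, n = 5). Il17rc followed, with 20.8 ± 3.48 in palatal and 27.9 ± 5.51 in buccal libraries. In palatal libraries Il6st (12.3 ± 1.22), Il22ra1 (10.4 ± 1.45) and Il20rb (8.73 ± 0.550) came next, each overlapping with its neighbour. In buccal libraries Il20rb (16.4 ± 1.08) and Il22ra1 (15.3 ± 0.870) came next and overlapped, and Il6st (9.89 ± 1.05) lay below both. Il6ra (5.44 ± 0.418) and Il10rb (5.08 ± 0.534) overlapped in palatal libraries, whereas Il10rb (6.93 ± 0.529) lay above Il6ra (3.81 ± 0.592) in buccal libraries. The last places were held on both sides by Il17ra (2.58 ± 0.196 in palatal and 2.32 ± 0.0735 in buccal libraries), Osmr (1.22 ± 0.102 in palatal and 1.29 ± 0.300 in buccal libraries) and Il20ra (0.0867 ± 0.0339 in palatal and 0.183 ± 0.132 in buccal libraries).

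Ratios between partner chains, on the same scale per kilobase, describe how evenly the chains of a receptor differed between sides. The ratio of Il22ra1 to Il20rb, which together form a receptor for interleukins 20 and 24, was 1.18, 1.31, 1.02, 1.11 and 1.34 in palatal libraries 1 to 5, against 0.915, 0.947, 0.945, 0.910 and 0.948 in buccal libraries 1 to 5. All palatal ratios lay above all buccal ones. The ratio of Il22ra1 to Il10rb, the interleukin 22 receptor pair, was 2.05 ± 0.243 in palatal and 2.21 ± 0.117 in buccal libraries (SD, n = 5), with overlap.

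The ratio of Il17ra to Il17rc was 0.126 ± 0.0194 in palatal and 0.0858 ± 0.0165 in buccal libraries (SD, n = 5), and the sides overlapped through palatal library 2 and buccal libraries 2 and 3. For Il6ra to Il6st it was 0.443 ± 0.0174 in palatal and 0.389 ± 0.0715 in buccal libraries, and for Osmr to Il6st 0.0998 ± 0.00934 in palatal and 0.130 ± 0.0231 in buccal libraries, both with overlap. The ratio of Il20ra to Il20rb, 0.0100 ± 0.00412 in palatal and 0.0112 ± 0.00818 in buccal libraries, rests on the few Il20ra counts.

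**Figure D3:**
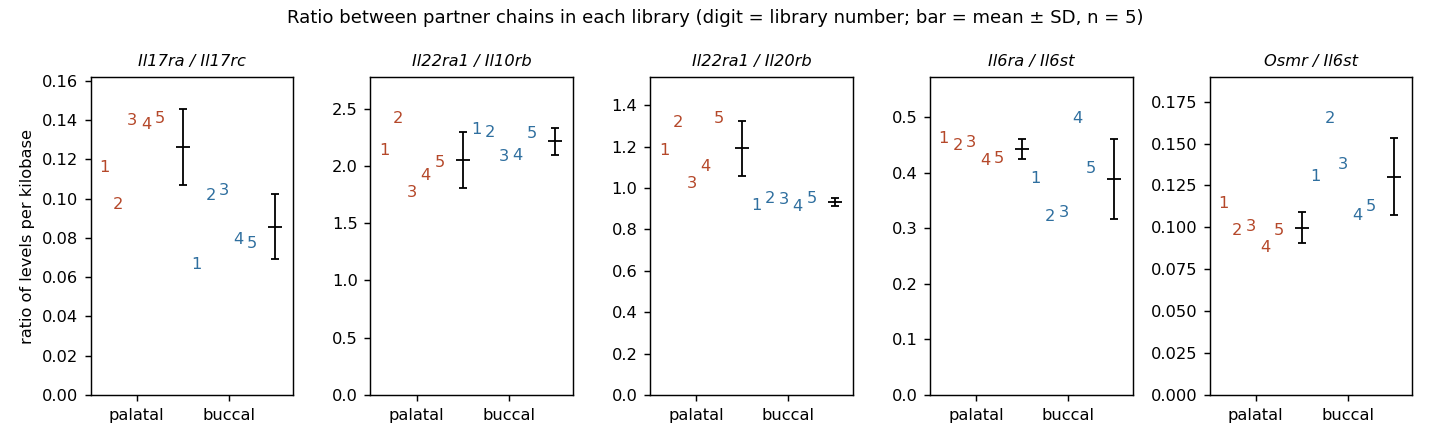
Ratio between the levels per kilobase of exon of partner chains in each library, each digit standing for the library of that number, with the mean ± SD beside it and every vertical axis starting at 0. Of the ratios shown, that of Il22ra1 to Il20rb separates the sides, with palatal values of 1.02 to 1.34 above buccal values of 0.910 to 0.948.

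Genes with the most similar course over the 10 libraries were sought among 10804 genes by the root mean square difference of log2 CPM, each gene centred on its own mean. This was done for the receptor genes with the lowest and the highest log2 fold change. Centring over both sides keeps the difference between sides, so near genes have nearly the same fold change. Likeness within a side was not tested. Nearest to Il20rb were Gclm, Ttc39a and Paqr4 (differences of 0.07, 0.08 and 0.08 log2 units), and Gclm had 47.0 ± 2.67 CPM in palatal and 87.6 ± 3.96 CPM in buccal libraries (SD, n = 5). Nearest to Il6ra were Tbc1d9, Ces1g and Enc1 (0.09, 0.10 and 0.10 log2 units), and Tbc1d9 had 49.3 ± 3.28 CPM in palatal and 34.3 ± 5.66 CPM in buccal libraries.

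Of 22 listed ligand genes 5 were tested, 1 higher and 1 lower in palatal (median log2 fold change 0.07). Among all tested genes 18.7% were higher and 20.3% lower, the shares to set beside this and each list count below. Whether a list differs from other genes was not tested. Tnf, a ligand of the Tnfrsf1a product, was lower, with 0.473 ± 0.171 CPM in palatal and 1.20 ± 0.404 CPM in buccal libraries (SD, n = 5), a log2 fold change of -1.32 ± 0.29 (SE; edgeR adjusted p = 0.00207). Ctf1, cardiotrophin 1, which signals through gp130, was higher, with 4.87 ± 0.724 CPM in palatal and 3.52 ± 0.440 CPM in buccal libraries (log2 fold change 0.47 ± 0.13 SE; edgeR adjusted p = 0.00914). Clcf1, Lif and Il11, which also signal through gp130, gave 0.30 ± 0.24, -0.15 ± 0.16 and 0.07 ± 0.27 (SE; edgeR adjusted p = 0.344, 0.497 and 0.854).

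The other 17 ligand genes were too low to be tested, and their counts are sums over the 5 libraries of a side. Il17a had 2 in palatal and 6 in buccal libraries, and Il17f had 5 in palatal and 12 in buccal libraries. Il17c, which epithelial cells make, had 7 in palatal and 19 in buccal libraries. Il22 had 0 in palatal and 1 in buccal libraries, where a count of 0 allows up to 3 counts over a side. Il24 had 0 in palatal and 9 in buccal libraries, in which 2 libraries held them all, and Il19 had 2 in palatal and 7 in buccal libraries. Il10 had 9 in palatal and 31 in buccal libraries, Osm had 8 in palatal and 9 in buccal libraries and Il6 had 1 in palatal and 0 in buccal libraries. Of the lymphotoxin genes, Ltb had 18 in palatal and 82 in buccal libraries and Lta had 4 in palatal and 13 in buccal libraries. Il17b, Il25, Cntf, Ifnl2, Ifnl3 and Il20 had at most 18 counts on either side, Il20 and Ifnl3 with 0 in all libraries.

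Of 14 other chains of the same receptor families 10 were tested, 3 higher and 2 lower (median log2 fold change 0.03). Il11ra1, the interleukin 11 binding partner of gp130, and Il17rb, a chain of the interleukin 25 receptor, were higher by 0.64 ± 0.14 and 0.58 ± 0.19 (SE; edgeR adjusted p = 0.00189 and 0.0277). The Il17rb call was lost without buccal library 1 (edgeR adjusted p = 0.0577) or 4 (0.0601), without palatal library 2 (0.0653) or 4 (0.0702) and without library 2 on both sides (0.0815). Il10ra, the interleukin 10 binding partner of the Il10rb product, was lower, with 2.89 ± 0.282 CPM in palatal and 5.01 ± 0.274 CPM in buccal libraries (log2 fold change -0.79 ± 0.10 SE; edgeR adjusted p = 2.44e-05). Tnfrsf1b, the other TNF receptor gene, was also lower (log2 fold change -1.06 ± 0.29 SE; edgeR adjusted p = 0.00970). Both are typical of leukocytes. Ifnlr1, which pairs with the Il10rb product to bind interferon lambda, gave -0.09 ± 0.08, and Il17re, which binds interleukin 17C, gave -0.14 ± 0.13 (SE; edgeR adjusted p = 0.401 and 0.436).

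All 15 interleukin 17 signalling genes were tested, 1 higher and 9 lower (median log2 fold change -0.33), against 18.7% and 20.3% of all tested genes. Signalling itself was not measured, so these counts give no direction for it. Usp25, a deubiquitinase that acts on TRAF proteins, had 164.7 ± 15.9 CPM in palatal and 318.1 ± 23.6 CPM in buccal libraries (SD, n = 5), a log2 fold change of -0.95 ± 0.08 (SE; edgeR adjusted p = 2.98e-07). Zc3h12a, the endonuclease Regnase-1 that degrades inflammatory transcripts, gave -0.75 ± 0.13, and the adaptor genes Traf5 and Traf2 gave -0.53 ± 0.10 and -0.35 ± 0.08 (SE; edgeR adjusted p = 5.17e-04, 4.37e-04 and 0.00299). Traf3ip2, which encodes Act1, the adaptor that binds the interleukin 17 receptor, was lower by little, with -0.22 ± 0.06 (SE; edgeR adjusted p = 0.0108, and 0.0615 with no count filter). Arid5a, an RNA-binding protein gene, was the one that was higher, with 0.85 ± 0.20 (SE; edgeR adjusted p = 0.00392).

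All 25 JAK and STAT pathway genes were tested, 3 higher and 8 lower (median log2 fold change -0.16). Stat3, the main factor downstream of the class II chains and of gp130, had 84.6 ± 6.13 CPM in palatal and 137.3 ± 5.33 CPM in buccal libraries (SD, n = 5), a log2 fold change of -0.70 ± 0.06 (SE; edgeR adjusted p = 7.96e-07). Jak2, a kinase used by many cytokine receptors, and Bcl3, a co-regulator of NF-kB, gave -1.02 ± 0.10 and -0.69 ± 0.13 (SE; edgeR adjusted p = 1.42e-06 and 6.65e-04), each with all palatal libraries below all buccal ones. Jak1, the kinase that both receptor classes use, was higher by 0.18 ± 0.07 (SE; edgeR adjusted p = 0.0397), a call that held in 10 of 19 alternatives. For Jak1 it was lost without buccal library 1 (edgeR adjusted p = 0.0801), 4 (0.104) or 5 (0.0696), without palatal library 1 (0.0544), 3 (0.0768) or 5 (0.0725), with no filter (0.0858) and with library totals alone (0.110), among others. Tyk2, a second kinase of the class II chains, and Socs3, the feedback inhibitor that binds gp130, gave -0.16 ± 0.09 and -0.22 ± 0.22 (SE; edgeR adjusted p = 0.162 and 0.476).

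All 25 genes of TNF receptor signalling were tested, 3 higher and 8 lower (median log2 fold change -0.09). Mlkl, the executor of necroptosis, had 2.05 ± 0.383 CPM in palatal and 7.05 ± 3.71 CPM in buccal libraries (SD, n = 5), a log2 fold change of -1.77 ± 0.30 (SE; edgeR adjusted p = 4.88e-04). Traf1 and Tnfaip3, which NF-kB induces, gave -1.55 ± 0.32 and -0.68 ± 0.16, and Tab2, an adaptor of the kinase encoded by Map3k7, gave 0.50 ± 0.09 (SE; edgeR adjusted p = 0.00126, 0.00315 and 6.58e-04). Tradd and Ripk1, which act next to the receptor, gave -0.23 ± 0.11 and -0.09 ± 0.09 (SE; edgeR adjusted p = 0.111 and 0.452). Without palatal library 3, 5 genes of this list were lower.

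Of 20 listed interleukin 17 targets 17 were tested, 2 higher and 3 lower (median log2 fold change -0.27). Steap4, a metalloreductase gene, had 4.20 ± 0.588 CPM in palatal and 12.8 ± 4.91 CPM in buccal libraries (SD, n = 5), a log2 fold change of -1.60 ± 0.22 (SE; edgeR adjusted p = 6.62e-05). Nfkbiz, which encodes IkB-zeta, was lower, with -0.47 ± 0.14 (SE; edgeR adjusted p = 0.0177, and 0.0903 with no count filter), and Zc3h12a is on this list too. Defb3, a beta-defensin gene, was higher, with 1.39 ± 0.33 (SE; edgeR adjusted p = 0.00478). The other higher gene, Il36g, gave 0.22 ± 0.08 (SE; edgeR adjusted p = 0.0494), and in 13 of 19 alternatives 1 target was higher. Slpi, Defb4 and Cxcl1 gave -0.14 ± 0.15, 0.04 ± 0.14 and -0.42 ± 0.42 (SE; edgeR adjusted p = 0.521, 0.859 and 0.476). Slpi passed without library 2 on both sides (-0.33; edgeR adjusted p = 0.0476), and Cxcl1 passed without buccal library 4 (-0.69; edgeR adjusted p = 0.0212).

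Of 16 listed targets of interleukins 20 and 22 and oncostatin M 10 were tested, 4 higher and 2 lower (median log2 fold change 0.27). Signalling by these cytokines was not measured either, so these counts give no direction for it. Krt16, a keratin of activated keratinocytes, had 10712 ± 1383 CPM in palatal and 3381 ± 452.5 CPM in buccal libraries (SD, n = 5), a log2 fold change of 1.66 ± 0.12 (SE; edgeR adjusted p = 5.50e-08). Krt6a, whose reads can be hard to tell from those of Krt6b, and Pdpn, the podoplanin gene, were higher too, with 0.92 ± 0.13 and 1.22 ± 0.18, while Krt17 was lower, with -0.81 ± 0.12 (SE; edgeR adjusted p = 4.90e-05, 1.05e-04 and 7.54e-05). Reg3g and S100a7a gave 0.31 ± 0.34 and 0.23 ± 0.12 (SE; edgeR adjusted p = 0.506 and 0.158). A scarce gene can pass the count filter through 1 side alone, so these counts describe the genes tested and not each list as a whole.

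**Figure D4:**
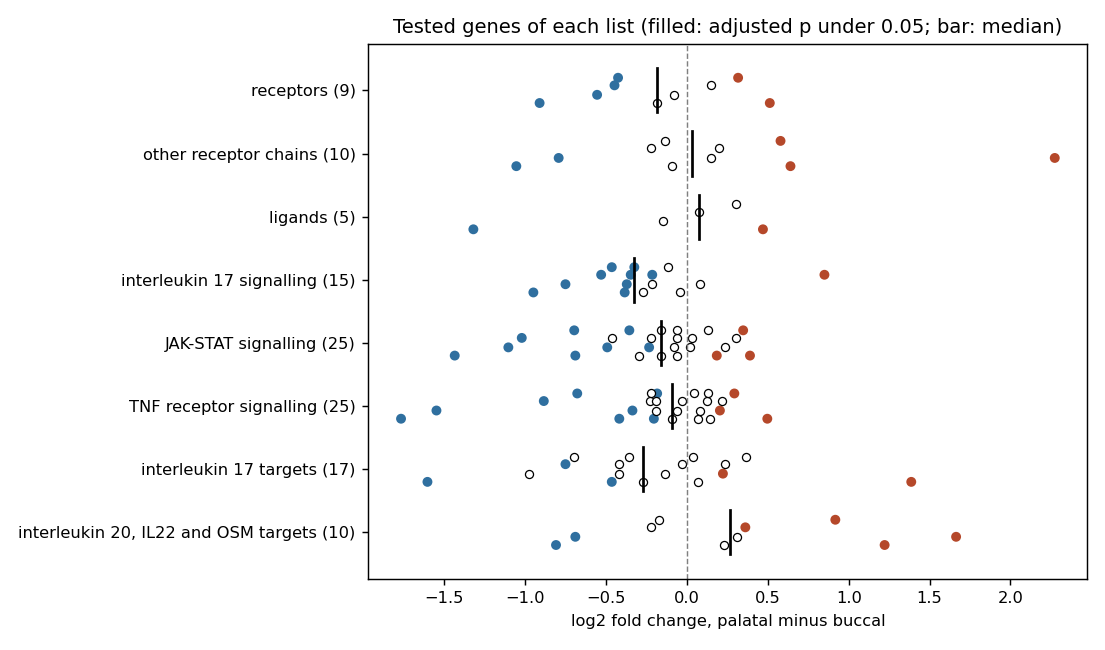
Log2 fold change, palatal minus buccal, of each tested gene in the receptor list and 7 lists of related genes, with the number tested in brackets. Filled points had an adjusted p under 0.05 in the edgeR test, bars mark list medians, and the medians run from -0.33 for interleukin 17 signalling to 0.27 for targets of interleukins 20 and 22 and oncostatin M.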

How the data were processed

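Stranded libraries of polyadenylated RNA were read from a single end over 122 bases, per the labels' protocols. Named in the submitters' processing notes, without roles, are HTSeq 2.01, DESeq2 1.36.0, TopHat2 2.1.1, cutadapt 2.10 and GRCm39. Per the file headers, the authors' table holds raw counts by gene and library, and DESeq2-normalized values, a signal that equals the count over 1 factor per library. The 6250 genes of 55414 with no value were not used. Library totals are in the report, and intervals and floors cover counting error only where they rest on counts.

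The filter filterByExpr (minimum count 10) left 14062 genes. Palatal and buccal counts were set against each other in edgeR (quasi-likelihood, robust, TMM scaling, two-sided, adjusted over all tested genes). Standard errors were taken as the absolute log2 fold change over the root of F, and log2 CPM had a prior count of 2. Versions were edgeR 4.0.16, limma 3.58.1, DESeq2 1.42.0 and R 4.3.3. The fit was tested on simulated data. The 19 alternatives were other scalings, other filters, DESeq2, limma-voom, a replicate block and left-out libraries.

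Members and lists were chosen with earlier results of these data known. The text names all members, up to 4 genes per list with the smallest p (some are not reported here), the ligands, and the 3 nearest profiles of 2 members. Traf3ip2, Arid5a, Jak1, Tyk2, Socs3, Tradd, Ripk1, Ifnlr1, Il17re, Il17rb, Slpi, Defb4, Cxcl1, Il36g, Reg3g and S100a7a were added after their values were seen.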

Additional observations from a re-analysis of the deposited data

How the results depend on the processing

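Over 19 alternatives to the edgeR test, 5 to 7 receptor genes were called, 2 of them higher in palatal in every alternative and 3 to 5 lower. Il20rb, Il22ra1, Il10rb, Il6ra and Il6st passed in all 19, with log2 fold changes of -0.96 to -0.87, -0.60 to -0.47, -0.50 to -0.41, 0.47 to 0.57 and 0.27 to 0.37. With each library left out in turn, 5 to 6 receptor genes and 4916 to 5399 of all genes were called, and over all alternatives 4902 to 5940, against 5474. The Osmr log2 fold change ran from -0.174 to 0.0413 with each library left out, positive only without buccal library 2, and was 0.0650 without library 2 on both sides; it was called in none, and the cause was not tested. Uncalled Defb4 ran from -0.0498 to 0.110 with each library left out and was -0.00576 with library totals alone, and uncalled Il11 ran from -0.0788 to 0.179 and was -0.0472 without library 2 on both sides; the cause was not tested. No scaling moved the median of all genes by over 0.1 log2 units.

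Some list counts moved by over 1.5 times. The 1 lower ligand became 3 with no filter, 0 with at least 1 CPM in 5 libraries, and 2 with DESeq2 or without buccal library 3 or any 1 palatal library. The 2 higher interleukin 17 targets became 1 in 13 alternatives, among them RLE scaling, library totals, DESeq2, the stricter filter, and each library left out except buccal 5 and palatal 3. The 3 lower targets became 5 without buccal library 4. The 8 lower TNF receptor signalling genes became 5 without palatal library 3.

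The labels do not say whether same-numbered libraries share an animal. Their deviations from the side means correlated at 0.328, 0.0632, -0.0226, 0.205 and 0.0629 for numbers 1 to 5, and palatal libraries 1 and 4 correlated best with their own number. Palatal libraries 2 and 3 also correlated best with buccal library 1, and palatal library 5 with buccal library 3. With the replicate number as a block, 6 receptor genes were called, 2 higher and 4 lower, and 5518 of all genes, and the block changed no receptor gene's call but lost that of Jak1 (edgeR adjusted p = 0.0523), with Il17rc at an edgeR adjusted p of 0.049997.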
